A study of Macaca fascicularis with 10 samples.

Results

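GNAS and L3MBTL1 are 2 of the 7229 genes in a table of allelic read counts from the dorsal raphe nucleus, a brainstem region that holds most of the serotonin neurons projecting to the forebrain. They were chosen by name because both are imprinted in some tissues, and every daughter with 10 or more allelic reads of the gene was described. The animals were 10 daughters of the cynomolgus macaque (Macaca fascicularis), a monkey of the Old World, and the labels name both parents of each. The labels give all of them 1 group, with no treatment and no age. Reads of the paternal and of the maternal allele have a column each for every daughter, so the comparison is paternal against maternal reads within 1 animal. GNAS had counts in 5 daughters (1, 4, 5, 7 and 8) and L3MBTL1 in 9 (2 to 10), and all 14 measurements held 10 or more reads.

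GNAS encodes the alpha subunit of the stimulatory G protein, which couples receptors to adenylyl cyclase and the making of cyclic AMP. In human and mouse the locus is imprinted in parts. Transcripts from its upstream promoters are read from a single parental copy, with NESP55 maternal and XL alpha s paternal. The alpha subunit transcript is read from both copies in most tissues and mainly from the maternal copy in a few, such as thyroid and pituitary. L3MBTL1 encodes a chromatin protein with MBT domains, which bind methylated histones and compact chromatin. In human blood cells L3MBTL1 is read from the paternal copy. Both genes lie on chromosome 10 of the macaque assembly T2T-MFA8v1.1, with 145 protein-coding genes between them, and that annotation gives 29 transcripts for GNAS and 34 for L3MBTL1. Each row of the count table is 1 total for the gene. The labels and headers do not say which transcripts or positions gave its reads, and whether strand was used in counting is not stated, so reads from an antisense transcript cannot be told apart from those of the gene.

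Depth was lowest in daughter 1, with 30090 allelic reads, and highest in daughter 6, with 999471. The paternal column held between 49.3% and 50.4% of all allelic reads. Of the markers of the tissue, 6 of 9 listed serotonin neuron genes had a row, among them the serotonin synthesis gene TPH2, which had 9561 reads in all, with 10 or more in 7 daughters. No listed astrocyte, oligodendrocyte or cerebellar gene had a row, so those cells were not analysed here. In bulk tissue fewer cells of a type and less RNA per cell cannot be told apart.

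The side of the parental columns is in doubt in some daughters. Within a tissue, imprinted genes usually keep the same parental side from animal to animal, but several in this table changed sides between daughters. GRB10 was 96% or more paternal in daughters 3, 4, 5 and 10, against 5.08%, 2.97% and 9.16% in daughters 2, 6 and 9. DLK1 had 1.74% in daughter 6 and at least 96.8% in daughters 3, 4, 5 and 10, and MEST had 91.3% in daughter 3 but 3.09% in daughter 6. COPG2 took the reverse pattern, at 76.1% to 87.8% in daughters 2, 6, 7, 8 and 9, against 22.4% and 23.5% in daughters 3 and 5. Daughters 2, 6, 7, 8 and 9 thus stood apart from daughters 3, 4, 5 and 10, on COPG2 alone for daughters 7 and 8, and daughter 1 had too few reads of these genes. Whether the parental columns are exchanged in any daughter cannot be settled from the files. Paternal and maternal below mean the columns as labelled. Summaries of the shares of GNAS and L3MBTL1, and the prefix and half-sister differences of GNAS, are also given with columns exchanged. That exchange was chosen after seeing the data and left untested. Other results, among them the tests, the unequal counts by side and the mean shares of listed genes, are given as labelled only.

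GNAS was read from both alleles in every daughter measured, with a small excess on 1 side. In daughter 1 there were 226 paternal and 351 maternal reads. Daughter 4 had 1789 paternal and 2316 maternal reads, and daughter 5 had 1513 paternal and 1908 maternal reads. The excess was thus in the maternal column in daughters 1, 4 and 5, and the labelled side of daughter 1 could not be checked. Daughter 7 had 2574 paternal and 1830 maternal reads, and daughter 8 had 7149 paternal and 5084 maternal reads. The excess was thus in the paternal column in daughters 7 and 8, whose labelled sides are in doubt.

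As a percentage of both alleles, which is called the paternal share, GNAS had 39.2% in daughter 1 (95% Wilson interval 35.3 to 43.2) and 43.6% in daughter 4 (42.1 to 45.1). The share was 44.2% in daughter 5 (42.6 to 45.9), 58.4% in daughter 7 (57.0 to 59.9) and 58.4% in daughter 8 (57.6 to 59.3). The intervals of daughters 7 and 8 did not overlap those of daughters 1, 4 and 5. With the columns of daughters 7 and 8 exchanged, their shares would both be 41.6%, and GNAS would lie below 50% in 5 of 5 daughters, at 42.0% ± 1.99 (SD, n = 5). That exchange rests on COPG2 alone, which shared the side of GNAS there, so the new side follows from the choice. Daughter 1 was kept as labelled, since her side could not be checked. The SD is that of the distance from balance, given next. Regardless of side, the allele with more reads held between 55.8% and 60.8%, and the distance from an equal share was 7.98 ± 1.99 percentage points (SD, n = 5). These intervals cover counting error alone. They treat reads as independent molecules, which PCR copies are not, so they may be too narrow. The SD of the share between daughters was 9.04 points, against 1.11 points of counting error at these depths if reads were independent.

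**Figure D1:**
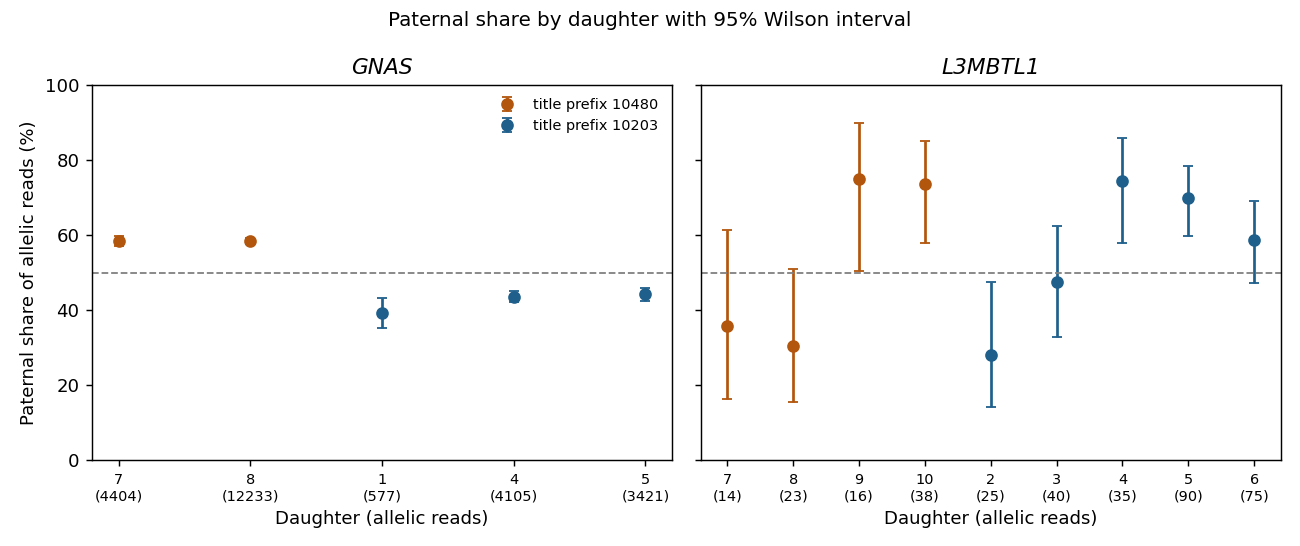
Paternal share of allelic reads (%, y axis) of GNAS (left) and L3MBTL1 (right) in each daughter, with 95% Wilson intervals as bars, the number of allelic reads in brackets and title prefix as colour. The dashed line is an equal share. GNAS lies at 58.4% in daughters 7 and 8 and between 39.2% and 44.2% in daughters 1, 4 and 5, while L3MBTL1 spans 28% to 75%.

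In 7 of 9 daughters L3MBTL1 lay farther from an equal share than GNAS did in any, at far lower depth. Daughters 4, 5, 9 and 10 had more paternal reads, with 26 paternal and 9 maternal reads in daughter 4 and 63 paternal and 27 maternal reads in daughter 5. Daughter 9 had 12 paternal and 4 maternal reads, and daughter 10 had 28 paternal and 10 maternal reads. Daughter 6 leaned the same way with 44 paternal and 31 maternal reads. The opposite side was taken in daughter 2, with 7 paternal and 18 maternal reads, in daughter 7, with 5 paternal and 9, and in daughter 8, with 7 paternal and 16. Daughter 3 was near balance with 19 paternal and 21 maternal reads.

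The paternal share of L3MBTL1 ran from 28% in daughter 2 through a median of 58.7% in daughter 6 to 75% in daughter 9. Shares of 74.3%, 70% and 73.7% were found in daughters 4, 5 and 10, and the intervals of these 3 began at 57.9% or above. Daughter 9 had the highest share but only 16 reads, with an interval from 50.5% to 89.8%. The allele with more reads held 52.5% to 75%, and the distance from an equal share was 17.8 ± 7.78 points (SD, n = 9). The SD between daughters was 19.7 points, against 8.68 points of counting error if reads were independent. With the columns of daughters 2, 6, 7, 8 and 9 exchanged, the share would still run from 25% to 74.3%, with 6 daughters above and 3 below 50%. Without those 5 daughters it averaged 66.4% ± 12.7 (SD, n = 4). In no daughter was either gene read from a single allele.

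**Figure D2:**
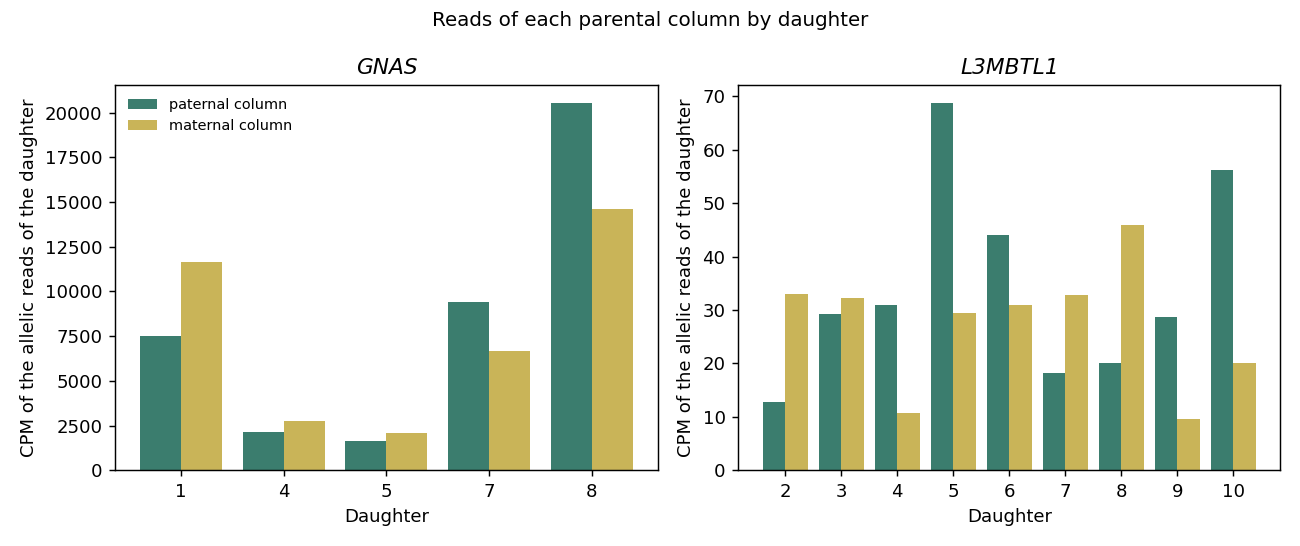
Reads of the paternal column (green, left bar) and the maternal column (yellow, right bar) of GNAS and L3MBTL1 in each daughter, as CPM (reads scaled to a fixed library total) of that daughter's allelic reads on the y axis. GNAS reaches 20527 paternal and 14598 maternal CPM in daughter 8, and the taller bar is paternal in daughters 7 and 8 and maternal in daughters 1, 4 and 5. Each bar is 1 library.

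The allelic level of both genes differed between daughters. GNAS was lowest in daughter 5 at 3729 CPM of allelic reads, followed by daughter 4 at 4885. Daughter 7 reached 16073.5 CPM, daughter 1 reached 19176 and daughter 8 had 35124. The levels of daughters 4 and 5 lay close together and far below those of the other 3. The level of L3MBTL1 ran from 38.3 CPM in daughter 9 through a median of 61.6 in daughter 3 to 98.1 in daughter 5. These levels count only reads over positions that differ between the parents, so they follow the number of such positions in a daughter as well as expression, and each is 1 library with no replicate. With the columns as labelled, daughters 1 and 7, next to each other in the order of GNAS levels, had their excess on opposite sides. With the columns of daughter 7 exchanged, her paternal share of GNAS would be 41.6%, on the same side as the 39.2% of daughter 1. Whether the level of GNAS goes with its side was not tested.

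The next question was whether such shares are common among genes read at the same depth. A measurement was counted as unequal where its 95% Wilson interval left out 50%. GNAS was unequal in 5 of 5 daughters, 2 on the paternal and 3 on the maternal side. Over the 12806 measurements of genes with 10 or more reads in these 5 daughters, 19.8% were unequal, with 9.62% on the paternal and 10.2% on the maternal side. Deep genes have narrow intervals, and among the 573 measurements with 500 or more reads the background was 42.9%, with 20.8% on the paternal and 22.2% on the maternal side. Those deep measurements had a median distance from balance of 2.54 points.

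Set against the other genes of its own daughter with 500 or more reads, GNAS stood toward the unequal end. In daughter 7 there were 3 of 42 other genes at least as far from balance, and in daughter 8 there were 6 of 63. In daughter 1, the shallowest, there was 1 of 8. In daughter 4 there were 36 of 219 (16.4%) and in daughter 5 there were 49 of 236 (20.8%). GNAS was therefore less set apart in daughters 4 and 5, and in none of the 5 was it alone at its distance.

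L3MBTL1 was unequal in 5 of 9 daughters, on the paternal side in daughters 4, 5, 9 and 10 and on the maternal side in daughter 2. The background over the 27361 measurements with 10 or more reads in these 9 daughters was 20.2%, with 9.57% paternal and 10.7% maternal. Among the 18670 measurements with 10 to 100 reads, the class that holds every L3MBTL1 value, it was 16.5%, with 7.72% paternal and 8.77% maternal. The median distance in that class was 7.89 points. In daughters 2, 4, 9 and 10 between 8.48% and 9.98% of other genes of the class in the same daughter lay at least as far from balance as L3MBTL1. In daughter 3 it was 83.3%, so the near equal share there was an ordinary value. The interval of daughter 9 just left out 50%, and with exact Clopper-Pearson intervals 4 daughters were unequal.

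**Figure D3:**
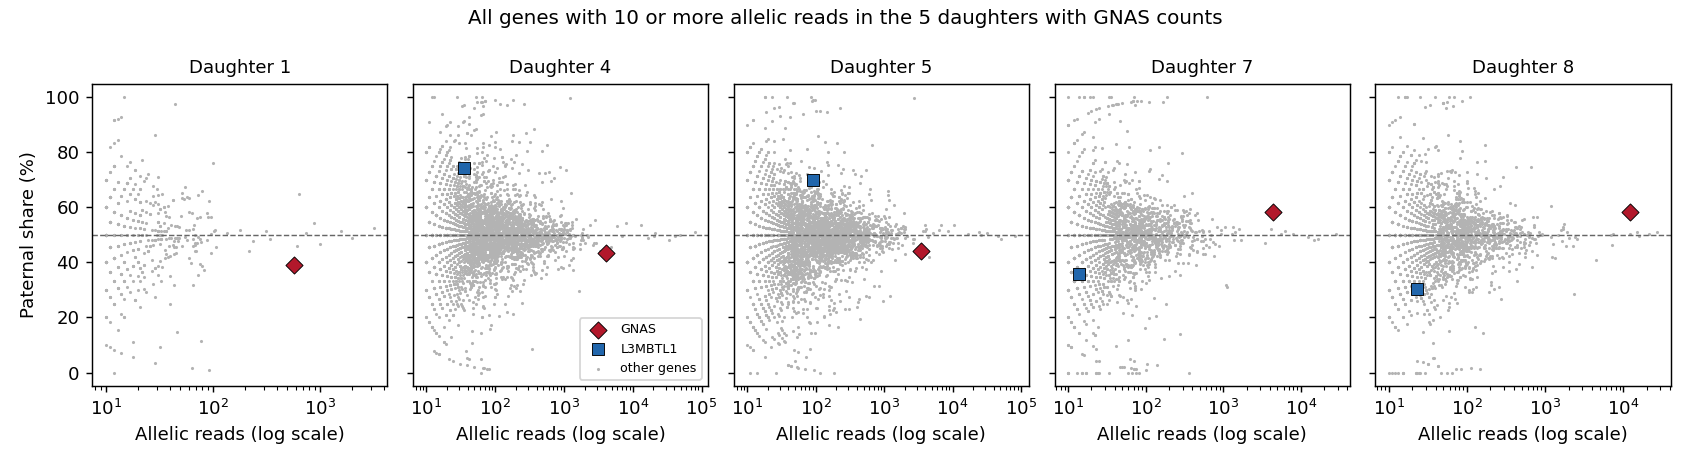
Paternal share (%, y axis) against allelic reads (log scale, x axis) of every gene with 10 or more reads in the 5 daughters with GNAS counts, with GNAS as red diamonds, L3MBTL1 as blue squares and other genes as grey points. GNAS lies below the line of equal shares in daughters 1, 4 and 5 and above it in daughters 7 and 8, and L3MBTL1 lies on the other side of the line from GNAS in the 4 daughters with both.

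Neither gene passed the test between the parental columns across daughters. In the quasi-likelihood fit of edgeR, with each animal as a block, GNAS had a log2 paternal over maternal difference of -0.06 ± 0.19 (SE, adjusted p = 1), and L3MBTL1 0.39 ± 0.33 (SE, adjusted p = 1). Of all 2981 genes tested, 0 were called at an adjusted p of 0.05 (0%), with 93 at an unadjusted p under 0.05. DESeq2 also called 0 (0%), with 62. A count of 0 called in any list below is therefore the count over all genes, and it sets no list apart. A gene on differing sides in different daughters averages toward 0 in such a fit. That held for GNAS, with a mean share of 48.8% in which 2 daughters lay above and 3 below 50%. The exact sign-flip permutation test over daughters (two-sided) gave p = 0.812 for GNAS, where 5 daughters cannot give less than 0.0625. For L3MBTL1, with 5 daughters above and 4 below, it gave p = 0.441. These values take the columns as labelled. In prefix 10203 alone, which leaves out daughters 7 and 8, the GNAS log2 difference was -0.44 ± 0.10 (SE, edgeR adjusted p = 1). The sign of the small GNAS difference over all daughters depended on single daughters, at 0.07 without daughter 1, 0.02 without daughter 4 and 0.01 without daughter 5.

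The sides of GNAS went with the title prefix of the samples, whose meaning the labels do not state. The 2 daughters of prefix 10480 had 58.4% each, and the 3 of prefix 10203 averaged 42.3% ± 2.75 (SD, n = 3), a difference of 16.1 points. All measured daughters of 1 prefix lay on 1 side, so prefix and side cannot be told apart for GNAS, and both daughters of prefix 10480 are among those with doubtful sides. With their columns exchanged the difference would be -0.769 points, 41.6% against 42.3%. The exact permutation test (two-sided) gave p = 0.1, the smallest that 2 against 3 daughters allow. In edgeR's test of the prefix by parental column interaction, GNAS had a log2 difference of 0.93 ± 0.13 (SE, unadjusted p = 0.000152, adjusted p = 0.225), which did not pass. The adjusted p of GNAS ran from 0.0662 to 0.819 over the alternatives. Over the 2960 genes fitted, 1 was called (0.0338%), CDIPT. Without 1 daughter the count of called genes lay between 0 and 2. It was 0 without daughter 1, 3, 4 or 5 and 2 without daughter 7 or 9.

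L3MBTL1 took both sides within each prefix. It averaged 53.7% ± 23.9 in prefix 10480 (SD, n = 4) and 55.7% ± 18.7 in prefix 10203 (SD, n = 5), and the difference of -1.98 points did not pass (exact permutation test, two-sided, p = 0.913). The interaction by edgeR was log2 -0.13 ± 0.72 (SE, adjusted p = 0.999). Its sign turned without daughter 4 (0.09), 5 (0.12), 7 (0.16) or 8 (0.40), and the difference in points turned as well, to 2.67, 1.60, 4.02 and 5.78.

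Daughters with the same labelled father were close in some pairs and far apart in others. Daughters 4 and 5 share a father, and their GNAS shares differed by 0.646 points. Daughters 7 and 8 share another father, and theirs differed by 0.00658 points. Daughter 1 has the labelled father of daughters 7 and 8, but her GNAS share lay 19.3 points from each of theirs, on the other side. With the columns of daughters 7 and 8 exchanged it would lie 2.39 points from each, on the same side. Over the 6 pairs with no shared parent the differences ran from 4.41 to 14.9 points. For L3MBTL1, daughters 4 and 5 differed by 4.29 points and daughters 7 and 8 by 5.28, against a median of 26.2 points over 33 pairs with no shared parent, which ran from 0.602 to 47.0. Daughters 6 and 10, with the same mother, differed by 15.0 points. The intervals of L3MBTL1 overlapped in 29 of all 36 pairs, so most of its pairs could not be told apart at this depth. No test was run on these few pairs.

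In the 4 daughters in which both genes were measured, they lay on opposite sides each time, which does not depend on which column is paternal. In daughter 4 GNAS had 43.6% and L3MBTL1 74.3%, and in daughter 5 they had 44.2% and 70%. In daughter 7 GNAS had 58.4% and L3MBTL1 35.7%, and in daughter 8 they had 58.4% and 30.4%. The intervals of L3MBTL1 in daughters 7 and 8 included 50%, at 14 and 23 reads. Daughters 4 and 5 share a father and daughters 7 and 8 share another, so these are not 4 unrelated cases.

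The other imprinted genes were then set beside both, again within a daughter, where an exchange of columns changes nothing. COPG2, which encodes a vesicle coat subunit, shared the side of GNAS in 3 of 3 daughters, with 23.5% in daughter 5, 76.1% in daughter 7 and 78.0% in daughter 8. GRB10, DLK1 and ZIM2 lay on the side opposite GNAS in daughters 4 and 5, with GRB10 at 97.7% and 96%. In daughters 1, 7 and 8 none of these 3 had 10 reads. GNAS lay on the side of INPP5F in 1 of 3 daughters, of ATP10A in 1 of 3 and of TP73 in 1 of 2. In daughter 1 INPP5F had 86.2% of 29 reads, opposite GNAS. L3MBTL1 lay on the side of GRB10, a growth factor receptor adaptor, in 4 of 7 daughters and opposite in 3, and on the side of COPG2 in 3 of 7 and opposite in 4. It lay on the side of INPP5F in 2 of 4 daughters, of ATP10A in 5 of 8 and of TP73 in 2 of 5. The relation of GNAS to COPG2 rests on 3 daughters, of which daughters 7 and 8 share a father.

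**Figure D4:**
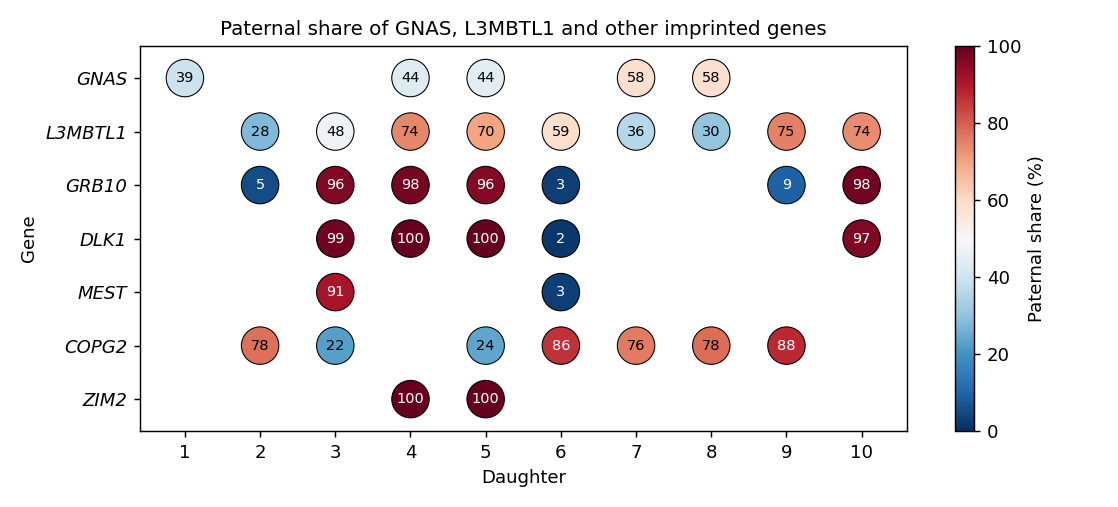
Paternal share (%, number and colour, red for paternal and blue for maternal) of GNAS and L3MBTL1, above other imprinted genes, in each daughter (x axis) with 10 or more reads of the gene (rows). GNAS stays between 39.2% and 58.4% while GRB10, DLK1 and ZIM2 lie at 96% or more in daughters 4 and 5. Where measured, GRB10, DLK1, MEST and COPG2 change sides between daughters 3, 4, 5 and 10 and daughters 2, 6, 7, 8 and 9. In daughters 7 and 8 only COPG2 of them is measured. INPP5F, ATP10A and TP73 are not shown.

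Genes listed as neighbours of GNAS on human chromosome 20q lay on both sides of balance. Of 27 listed, 11 had a row and 8 had 10 or more reads in some daughter. In the daughters with GNAS counts they gave 19 measurements, of which 8 lay on the side of GNAS, 9 on the other and 2 at exactly 50%. The intervals of 3 of the 19 left out 50%, near the share of 19.8% over all measurements in these daughters, so this count does not set the neighbours apart. CDH4, a cadherin, was on the opposite side in daughters 4, 5 and 8 and on the same side in daughter 7, each with an interval that held 50%. RAE1, an mRNA export factor, was on the same side in daughters 4 and 7 and opposite in daughters 5 and 8. Of these, only daughter 7 had a RAE1 interval that left out 50%. The nearer RAB22A, a small GTPase of endosomes, had a share of 50% in daughter 4 (250 reads) and 47.3% in daughter 8 (74 reads). In daughter 1 it had 20% of 10 reads, on the side of GNAS. Each of these intervals held 50%. CTSZ lay on the side of GNAS in daughters 4 and 5, with intervals that held 50%. ATP5E, a subunit of the mitochondrial ATP synthase, had 59.6% of 1068 reads in daughter 5 (56.6 to 62.5), where GNAS had 44.2%. NPEPL1 had 33.3% of 48 reads in daughter 4 (21.7 to 47.5), on the side of GNAS. In daughter 5 it lay opposite GNAS at 57.9%, with an interval that held 50%. Only 3 neighbours were tested by edgeR (RAE1, NPEPL1 and CDH4), with 0 called in either direction and a median log2 paternal over maternal difference of 0.13, beside -0.01 over all genes tested.

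The listed neighbours of L3MBTL1 were as divided. Of 32 listed, 12 had a row and 11 had 10 or more reads in some daughter. They gave 62 measurements in the daughters of L3MBTL1, of which 30 lay on its side, 29 on the other and 3 at 50%. The intervals of 14 of the 62 left out 50%, beside 20.2% of all measurements in these daughters. PTPRT, a receptor phosphatase, was on the side of L3MBTL1 in 7 of 9 daughters, and all of its 107 reads were paternal in daughter 6. In daughters 4, 7, 8, 9 and 10 the interval of PTPRT held 50%, and in daughters 3 and 6 that of L3MBTL1 did. In daughter 2, where L3MBTL1 lay on the maternal side, PTPRT had a share of 81.3% from 112 reads. Only in daughter 2 did the intervals of both genes leave out 50%. SGK2, a kinase gene and the next protein-coding gene of the assembly, lay opposite L3MBTL1 in 6 of 7 daughters, an observation made after its values were seen. In 1 of these, daughter 5, its interval left out 50%, with 37.5% of 80 reads (27.7 to 48.5) against 70% for L3MBTL1. YWHAB, a 14-3-3 protein gene, was on the side of L3MBTL1 in 3 of 8 daughters. By edgeR 7 neighbours were tested with 0 called in either direction, and their median log2 difference was 0.05.

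**Figure D5:**
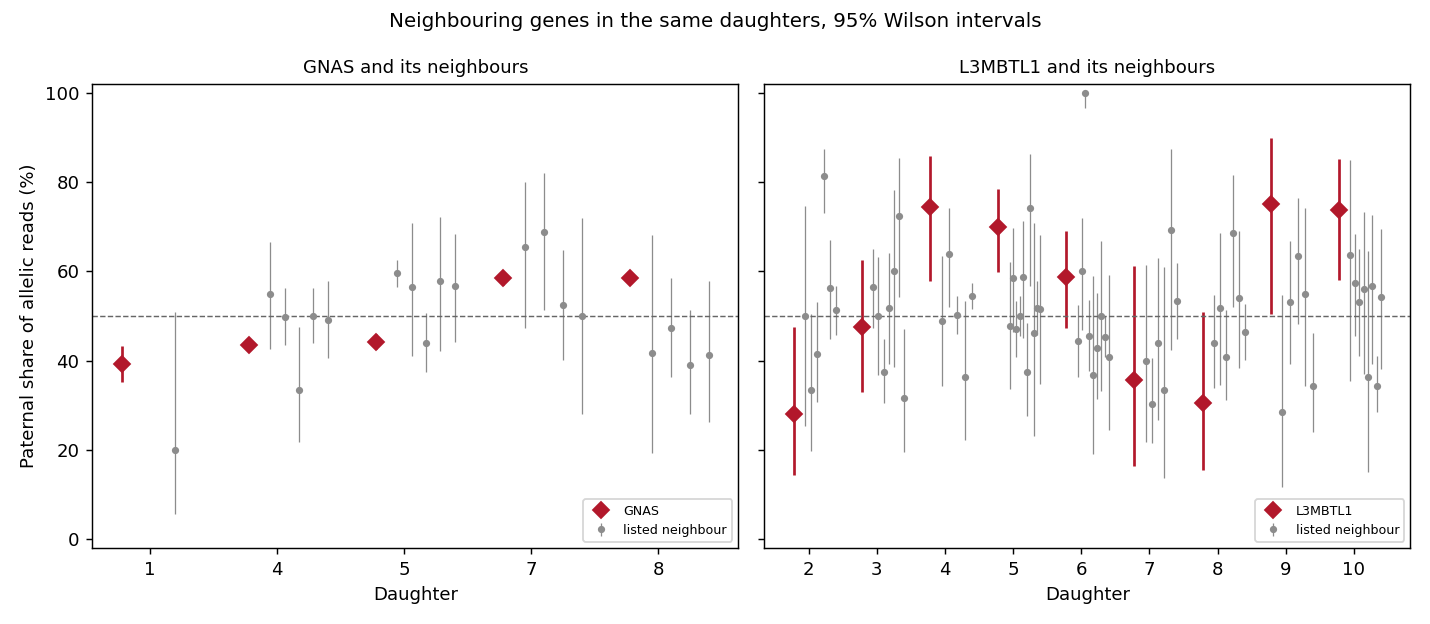
Paternal share (%, y axis) of GNAS (left) and L3MBTL1 (right) as red diamonds and of their listed chromosome 20q neighbours with 10 or more reads as grey points, with 95% Wilson intervals, by daughter (x axis). In each panel the grey points lie on both sides of the dashed line of equal shares, with 8 of 19 on the side of GNAS and 30 of 62 on the side of L3MBTL1. The intervals of 3 of the 19 and 14 of the 62 leave out 50%.

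The genes whose shares ran most like those of GNAS were sought among 32 genes with 50 or more reads in all 5 daughters, by the mean absolute difference in paternal share. ENPP2, which encodes the lysophospholipase D autotaxin, was nearest at 3.45 points, against a median of 8.19 over the 32. It lay on the side of GNAS in 5 of 5 daughters, with 43.3%, 49.5% and 46.3% in daughters 1, 4 and 5 and 55.4% and 56.4% in daughters 7 and 8. A transfer RNA row, TRNAR-CCU, followed at 5.14 points, whose allelic assignment is uncertain because such genes have near-identical copies. PFKP, a phosphofructokinase of glycolysis, came next at 5.73 points. For L3MBTL1, 492 genes had 10 or more reads in all 9 daughters, with a median of 18.5 points. BLM, a DNA helicase, was nearest at 9.92 points, then L3MBTL4 at 10.3 and MYLIP, a ubiquitin ligase, at 11. L3MBTL4 belongs to the same MBT domain family. It was on the side of L3MBTL1 in 7 of 9 daughters, from 40% in daughter 2 to 66.7% in daughter 9. All of these genes were picked by these same shares, so their counts of sides follow largely from the choice. None of them passed the test between parental columns.

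Of the genes listed with GNAS in cyclic AMP signalling, 0 passed the test between parental columns in either direction. The same was true of all 2981 genes tested, GRB10 among them, so this sets the listed genes apart from no others. Among the other G protein alpha subunits, 5 of 14 listed genes had a row, and 3 of their 22 measurements were unequal (13.6%), all on the maternal side, beside 20.1% over all 27887 measurements. GNAQ, which couples receptors to phospholipase C, had 49.5% ± 2.79 (SD, n = 6). GNA11, its close relative, had 46.2% ± 19.6 (SD, n = 8), with 0% in daughter 10. GNAL, the alpha subunit of olfactory and striatal neurons, had 42.3% ± 16.6 (SD, n = 5). By edgeR 3 alpha subunits were tested and 0 called.

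Receptors that act through GNAS had 7 of 28 rows, and 1 of 13 measurements was unequal (7.69%). The share over all genes, 20.1%, is the background of this list and of those that follow. ADCYAP1R1, the receptor of the neuropeptide PACAP, had 51.2% ± 2.08 (SD, n = 6). Of 7 adenylyl cyclases, the enzymes that GNAS activates, 4 had rows, and 2 of 32 measurements were unequal (6.25%). ADCY1 had 56.1% ± 6.10 and ADCY7 45.4% ± 13.4 (SD, n = 9 each). Among cyclic AMP effectors, phosphodiesterases and regulators, 14 of 39 had rows and 14 of 61 measurements were unequal (23.0%), 7 on each side. The anchoring protein gene AKAP9 had 49.5% ± 3.81 (SD, n = 9), and PRKAR1A, a regulatory subunit of protein kinase A, had 48.9% ± 12.4 (SD, n = 7). For G protein beta and gamma subunits, 4 of 15 had rows, with 3 measurements and 0 unequal. Of the 1 receptor, 4 cyclases and 6 effectors tested by edgeR, 0 were called in either direction.

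The MBT domain family and partners of L3MBTL1 had 15 of 24 rows, and 9 of 48 measurements were unequal (18.8%), 5 paternal and 4 maternal, close to the 20.1% of all genes. L3MBTL4 had 56.0% ± 9.64 (SD, n = 9) and SFMBT2, another MBT domain gene, 49.8% ± 13.2 (SD, n = 8). RB1, the retinoblastoma protein gene, had 48.9% ± 21.3 (SD, n = 5). By edgeR 4 were tested and 0 called. BLCAP and NNAT, imprinted genes of human chromosome 20q, had no row and were not analysed here.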

How the data were processed

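The authors deposited whole-number counts of allelic reads per gene, in 20 columns (both parents of every daughter), on the build macFas5, per the file headers. Libraries were ribosome-depleted, stranded total RNA sequenced from both ends for 101 cycles, per the labels' protocols, and Novoalign was used, per the submitters' processing notes. Phasing, positions and filters are not given in the sources used here. Columns were matched by title. Daughters were numbered 1 to 10 in label order and come from separate animals.

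A gene without a value was left unmeasured, or set to 0 in fits. Counts were tested with edgeR 4.0.16 (R 4.3.3; functions glmQLFit, prior made robust, and glmQLFTest) with the animal as block, since both columns come from 1 animal, and library size summed over both columns. Genes needed 10 reads in 5 daughters. Each SE is the log2 difference over the square root of F. Adjustment was by Benjamini-Hochberg over all genes tested at 0.05. DESeq2 1.42.0 was the other tool. Only the edgeR fit between parental columns was tried on simulated data, in which a biased gene kept 1 side in all daughters. Log2 ratios in permutation tests had 0.5 added to each count. Python 3.11.15, SciPy 1.17.1 and matplotlib 3.10.9 were used. Gene order came by symbol from T2T-MFA8v1.1, another build, so no coordinates are given. Most named list genes had the most daughters with 10 reads, and like genes the smallest mean difference in share. ATP5E, SGK2 and PRKAR1A were named although unnamed genes of their lists had more such daughters or more reads. Genes and lists were chosen with earlier results of these data known. Alternatives were other normalisations, read minimums, intervals and tools, each prefix alone and each daughter left out.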

Additional observations from a re-analysis of the deposited data

Results flagged for a closer look

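The paternal share of GNAS was 16.1 points higher in the daughters of title prefix 10480 than in those of prefix 10203. It stood out because every measured daughter of prefix 10480 (7 and 8) lay above 50% and every measured daughter of prefix 10203 (1, 4 and 5) below it. COPG2 alone, at 76.1% and 78.0%, placed daughters 7 and 8 among those with reversed imprinted genes. With their columns exchanged the difference would be -0.769 points. For the columns as labelled, the test of the difference by edgeR gave an adjusted p of 0.225, and the exact permutation test p = 0.1. No measure of GNAS or L3MBTL1 had a daughter far from the others by Dixon's ratio.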

How the results depend on the processing

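The distance from balance kept within 1 SD of its value under all alternatives, from 7.27 to 8.53 points for GNAS and from 14.3 to 20.6 for L3MBTL1. The mean share of GNAS passed to the other side of 50% with pooled reads (53.6%, where daughter 8 holds 12233 of 24740 reads) and in prefix 10480 alone (58.4%), and ran from 46.4% to 51.2% when each daughter was left out. Columns were also exchanged where other imprinted genes were reversed, on COPG2 alone for daughters 7 and 8, a choice made after seeing the data. The mean share of GNAS was then 42.0%, and its prefix difference turned to -0.769 points. Its log2 difference was -0.44 ± 0.10 (SE) in prefix 10203 alone and 0.13 with no replicate block, and it ran from -0.21 to 0.07 when each daughter was left out (0.0698 without daughter 1, 0.0155 without daughter 4, 0.00527 without daughter 5). That of L3MBTL1 ran from 0.24 to 0.58. No fit called either gene. Without the read filter 2 genes in all were called, and 0 to 1 without each daughter. For the prefix interaction DESeq2 called 0 genes, with 72 at an unadjusted p under 0.05 and 107 by edgeR, and leaving out each daughter gave 0 to 2, with L3MBTL1 at log2 -0.67 to 0.40. The prefix difference in share of L3MBTL1 ran from -9.08 to 5.78 points. With 99% intervals 3 daughters were unequal for L3MBTL1. The cause of these changes was not tested. Depth limits L3MBTL1, whose intervals are 18.6 to 44.9 points wide, against 1.75 to 7.94 for GNAS.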
